A study of Mus musculus with 6 samples.

Results

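Cxcl9 and Cxcl10 encode the chemokines CXCL9 and CXCL10, which bind the receptor CXCR3. The members were the non-control probes named for these 2 genes, 3 probes in all, out of 37317 genes and 56605 probes on the array. They were chosen with their values on these arrays known, so all their levels and differences are given as a description, with no test. CXCL9 and CXCL10 are small secreted proteins that guide activated T cells and natural killer (NK) cells, which carry CXCR3, towards inflamed tissue. Transcription of Cxcl9 is classically driven by interferon gamma. Cxcl10 responds more widely, to type I interferons, interferon gamma and NF-kB, and glucocorticoids such as dexamethasone are known to restrain many inflammatory genes through the glucocorticoid receptor.

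The RNA came from the cochlea, the hearing organ of the inner ear, of female C57BL/6 mice aged 6 weeks, and was measured on 6 one-colour Agilent arrays. The noise only group had 2 h of intense noise and no injection, and the time at which it was sampled is not given. The dexamethasone groups had the same noise and then an intraperitoneal injection of dexamethasone at 10 mg/kg, and were sampled at 12 h or 24 h. The saline groups had the noise and a saline injection, and were sampled at the same times. Baseline mice had neither noise nor injection. The submitters give 6 mice for each group, and each group is 1 array. Whether that array held pooled RNA is not stated.

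With 1 array per group there is no replicate and no test between groups. Each level below is the processed signal in the scanner's units with its spot error, and each difference is a log2 difference after dividing each array by its 75th percentile. The interval in brackets or parentheses is the 95% interval that the spot errors give, and covers the error of the spots alone, not the spread between mice. Both 12 h arrays were on slide 2 and the other 4 on slide 1, so a difference between a 12 h array and noise only, baseline or a 24 h array cannot be told apart from a difference between slides. Dexamethasone and saline of the same time shared a slide. The arrays had 63.0% to 70.3% of probes well above background and no saturated spot. In whole tissue, fewer cells of a type and less RNA per cell cannot be told apart.

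Marker genes of the dissected tissue differed between the arrays. Of 10 cochlear markers, 9 were well above background on 5 arrays and 8 on the dexamethasone 12 h array, and Slc26a5, which encodes the motor protein prestin of outer hair cells, was not well above background on any. Markers of bone-forming cells (5 of 5), neutrophils (8 of 8), macrophages (12 of 12) and erythroid cells (5 of 5) were well above background on all 6 arrays. All 5 cerebellar markers were too, and their summed level, in units of each array's 75th percentile, was 80.5 on noise only, 64.2 on dexamethasone 12 h, 65.2 on saline 12 h, 10.09 on dexamethasone 24 h, 17.2 on saline 24 h and 10.8 on baseline. The summed level of 5 skeletal muscle markers was 155 on noise only, 192 and 266 on dexamethasone and saline at 12 h, 101 and 154 at 24 h, and 68.3 on baseline. The groups thus differed in markers of neighbouring tissue as well as in treatment.

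The 3 probes are 60 bases long, and the first 30 bases of each are shown because every level below is what these probes captured. All lie on the minus strand of chromosome 5, with coordinates in mm9 per the file headers.
Cxcl9 probe A_51_P461665: atgggatttcattattaacttgatcccatc
Cxcl10 probe A_55_P2016462: gctttgcattgtatatggaagaacttgtgt
Cxcl10 probe A_55_P2016459: ttcctagtgtctagaagtggagcagttatt
The Cxcl9 probe spans chr5:92752191-92752250 and is annotated to its RefSeq transcript. The first Cxcl10 probe spans chr5:92775781-92775840, is also annotated to the RefSeq transcript, and represents the gene below because it had the highest mean signal. The other Cxcl10 probe spans chr5:92776616-92776675, starts 835 bases away and is annotated to a cDNA clone. The Cxcl9 probe and the first Cxcl10 probe shared no run of 16 bases with any probe of another gene, while the other Cxcl10 probe shared one with 1 of 56604 probes.

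The sequence just upstream of each gene's start is shown because interferon-activated factors and NF-kB act on such promoters. Whether motif content bears on the levels of the 2 genes was not tested. These are the 250 bases before the start of the RefSeq gene in GRCm38.p6, read along the gene on the minus strand, at chr5:92328080-92328329 for Cxcl9 and chr5:92348890-92349139 for Cxcl10. Capitals mark matches to the searched motifs.
Cxcl9: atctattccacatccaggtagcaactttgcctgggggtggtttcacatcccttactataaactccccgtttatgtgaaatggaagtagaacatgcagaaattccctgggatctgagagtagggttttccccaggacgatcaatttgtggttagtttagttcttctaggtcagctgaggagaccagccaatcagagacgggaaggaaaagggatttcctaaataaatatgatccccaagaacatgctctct
Cxcl10: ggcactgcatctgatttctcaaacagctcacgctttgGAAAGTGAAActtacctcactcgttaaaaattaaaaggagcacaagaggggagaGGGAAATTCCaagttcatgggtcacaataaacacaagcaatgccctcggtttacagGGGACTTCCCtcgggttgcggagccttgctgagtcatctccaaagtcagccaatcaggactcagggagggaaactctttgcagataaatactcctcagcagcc
Both strands were searched for 4 motifs. Cxcl10 held 1 match to the core of the interferon-stimulated response element, 2 runs of GAAA set 2 bases apart, which begins 213 bases before the start, and 2.98% of 32851 promoters of this length held one. It also held 2 matches to the NF-kB consensus, beginning 159 and 103 bases before the start, and 3.90% of promoters held at least 1. Neither gene held TTCNNNGAA, the gamma-activated site (7.02% of promoters), or ACANNNTGT, the spaced palindrome of the glucocorticoid receptor (5.84%). No match to any of the 4 motifs was found in the Cxcl9 window, which says only that these letters are not in these 250 bases. None of the motifs overlapped another, and a match is a description of sequence, not of binding.

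Cxcl10 was the gene of the pair that stood high on every noise-exposed array. Its signal was 9621 ± 962 units on noise only, 2222 ± 222 on dexamethasone 12 h, 2347 ± 235 on saline 12 h, 2556 ± 256 on dexamethasone 24 h, 5764 ± 576 on saline 24 h and 493 ± 49.5 on baseline (± spot error, 1 array each). Noise only and saline 24 h were the highest arrays, both dexamethasone arrays and saline 12 h lay together at an intermediate level, and baseline was far below all of them. Among probes well above background on the same array, Cxcl10 stood at percentile 94.1 on noise only and 90.7 on saline 24 h, against 58.7 on baseline.

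Against baseline, Cxcl10 was 18.5-fold higher on noise only (14.0 to 24.4), a log2 difference of 4.21 that was the 6th highest of 24160 measured genes. It was 4.92-fold higher on dexamethasone 12 h (log2 2.30) and 5.70-fold higher on saline 12 h (4.31 to 7.52). It was 5.39-fold higher on dexamethasone 24 h (4.09 to 7.12) and 12.3-fold higher on saline 24 h (9.33 to 16.3), where it ranked 7th of 22965 genes. Cxcl10 was thus at least 2-fold above baseline on 5 of 5 noise-exposed arrays. The share of all measured genes at least 2-fold higher than baseline was 2.64% on noise only, 4.55% on dexamethasone 12 h, 4.41% on saline 12 h, 1.31% on dexamethasone 24 h and 1.72% on saline 24 h. These 5 comparisons share the one baseline array and are not independent of each other.

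Cxcl9 was a dim transcript that did not follow Cxcl10. Its signal was 71.6 ± 7.82 units on noise only, 26.2 ± 4.54 on dexamethasone 12 h, 143 ± 14.5 on saline 12 h, 158 ± 16.4 on dexamethasone 24 h, 115 ± 12.5 on saline 24 h and 93.3 ± 9.87 on baseline. Dexamethasone 12 h was the lowest array and saline 12 h and dexamethasone 24 h were the highest, while noise only, where Cxcl10 peaked, was below baseline. The Cxcl9 probe was well above background on all 6 arrays, at percentile 3.69 of such probes on dexamethasone 12 h and between percentiles 23.6 and 41.1 on the others.

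**Figure D1:**
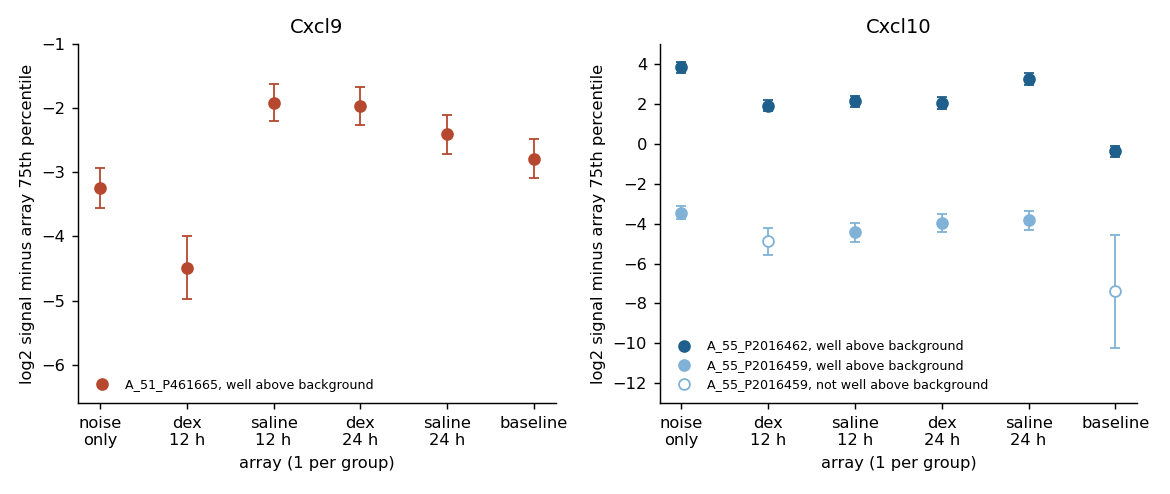
Level of each probe on each array, as the log2 signal minus the array's 75th percentile, with bars for the 95% interval of the spot error. Filled points were well above background and open points were not; Cxcl10 is lowest on baseline at -0.38 and highest on noise only at 3.83, and Cxcl9 is lowest on dexamethasone 12 h at -4.49.

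Against baseline, the Cxcl9 log2 difference was -0.46 on noise only [-0.89 to -0.03], -1.70 on dexamethasone 12 h [-2.28 to -1.13] and 0.87 on saline 12 h [0.46 to 1.29]. At 24 h it was 0.82 with dexamethasone [0.40 to 1.24] and 0.38 with saline [-0.05 to 0.81], so the saline interval included 0. No noise-exposed array was 2-fold above baseline for Cxcl9, and 1 of 5, dexamethasone 12 h, was at least 2-fold below it, by 3.26-fold (2.19 to 4.85). With normexp background correction, an offset of 50 units and quantile normalization this log2 difference was -0.85, which is under 2-fold. The share of all measured genes at least 2-fold lower than baseline was 3.18% on noise only, 2.64% on dexamethasone 12 h, 3.42% on saline 12 h, 2.02% on dexamethasone 24 h and 1.72% on saline 24 h. On dexamethasone 12 h Cxcl9 ranked 110th from the lowest of 23821.

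The arrays were also ordered by level after each was scaled as for the log2 differences. In that order Cxcl10 ran from noise only through saline 24 h, saline 12 h, dexamethasone 24 h and dexamethasone 12 h down to baseline. The neighbouring arrays in the run of saline 12 h, dexamethasone 24 h and dexamethasone 12 h differed by 0.08 and 0.13 log2, within spot error. The other neighbouring pairs differed by more than spot error. Scaled alike, Cxcl9 ran from saline 12 h through dexamethasone 24 h, saline 24 h, baseline and noise only down to dexamethasone 12 h. Its scaled saline 12 h and dexamethasone 24 h levels differed by 0.05 log2. Its scaled saline 24 h and baseline levels differed by 0.38, and both differences were within spot error. In scanner units, before scaling, dexamethasone 24 h read above saline 12 h for both genes.

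The distance between the highest and the lowest array was 4.21 log2 for Cxcl10 and 2.58 log2 for Cxcl9. Among 22459 genes well above background on all 6 arrays, 57 (0.254%) had a wider range than Cxcl10 and 306 (1.36%) a wider one than Cxcl9, and the median gene ranged over 0.63. The 2 genes therefore both varied widely, on different arrays.

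Dexamethasone was then compared with saline at each time. These arrays also differed in markers of other tissue, so treatment cannot be told apart from tissue content. At 12 h, Cxcl9 was 26.2 units with dexamethasone and 143 units with saline, a 5.96-fold lower level (4.02 to 8.84), log2 -2.58, and the 21st lowest of 24178 measured genes. With normexp background correction, an offset of 50 units and quantile normalization the log2 difference was -1.39, a smaller difference in the same direction. In that comparison 1.88% of measured genes were at least 2-fold lower and 1.67% higher. Cxcl10 was 2222 units with dexamethasone and 2347 units with saline at the same time, log2 -0.21 [-0.61 to 0.19], so the 2 arrays differed by less than spot error for Cxcl10.

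At 24 h the larger difference was that of Cxcl10. Cxcl10 was 2556 units with dexamethasone and 5764 units with saline, a 2.28-fold lower level (1.73 to 3.01), log2 -1.19, where 1.53% of measured genes were at least 2-fold lower and 1.63% higher, and Cxcl10 ranked 193rd from the lowest of 22709. Cxcl9 was 158 units with dexamethasone and 115 units with saline, 1.36-fold higher, log2 0.44 [0.02 to 0.87], an interval that stops just short of 0. The dimmer Cxcl10 probe gave a log2 difference of -0.15 [-0.81 to 0.51] at 24 h, so the 2 probes of Cxcl10 disagree on the size of this difference, and the mean of both was -0.67, which is under 2-fold.

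That dimmer probe read 62.3 units on noise only, 24.9 on saline 12 h, 39.3 on dexamethasone 24 h and 43.0 on saline 24 h. It was not well above background on dexamethasone 12 h or baseline. Against the lowest detectable signal on baseline it was at least 3.66-fold higher on noise only, at least 1.85-fold on saline 12 h, at least 2.54-fold on dexamethasone 24 h and at least 2.81-fold on saline 24 h. It shared with the brighter probe the highest level on noise only and a level on each of these 4 arrays above that on baseline.

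**Figure D2:**
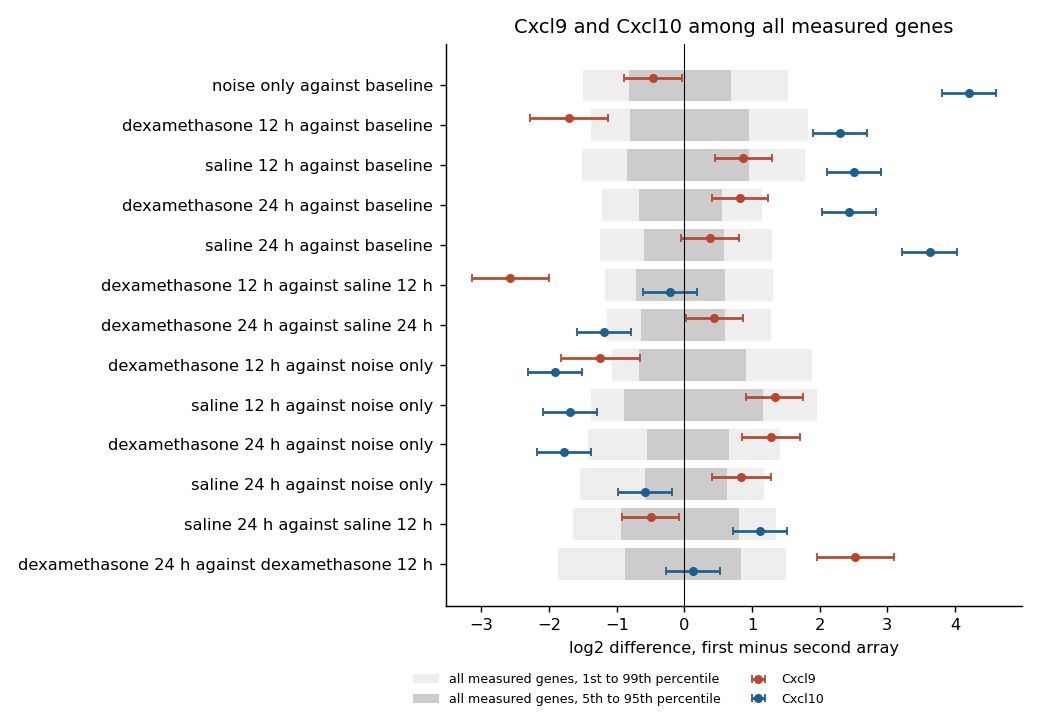
Log2 difference of Cxcl9 and Cxcl10 in each of 13 comparisons, first array minus second, with 95% intervals of the spot error. Grey bars span the percentile ranges of all measured genes that the key names; the Cxcl10 points of all 5 noise-exposed arrays against baseline lie beyond the grey bars, and Cxcl9 lies below the bar for dexamethasone against saline at 12 h.

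Set against noise only, all 4 injected arrays had less Cxcl10 signal. It was 3.75-fold lower on dexamethasone 12 h, 3.24-fold lower on saline 12 h, 3.43-fold lower on dexamethasone 24 h and lower by a log2 difference of -0.59 on saline 24 h. The share of measured genes at least 2-fold lower was 1.28% on dexamethasone 12 h, 3.51% on saline 12 h and 2.02% on dexamethasone 24 h, and Cxcl10 passed 2-fold in these 3 comparisons. Cxcl9 was 2.37-fold lower on dexamethasone 12 h, but 2.52-fold higher on saline 12 h, 2.43-fold higher on dexamethasone 24 h and 1.79-fold higher on saline 24 h. At least 2-fold higher were 7.11% of genes on saline 12 h and 2.07% on dexamethasone 24 h.

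Over time the ligands again differed. With dexamethasone, Cxcl10 was 0.13 log2 higher at 24 h than at 12 h, within spot error. With saline it was 2.16-fold higher at 24 h, log2 1.11, and 2.61% of genes were at least 2-fold higher. Cxcl9 was 5.75-fold higher at 24 h than at 12 h with dexamethasone, log2 2.52, where 3.23% of genes were at least 2-fold higher, and its difference with saline was -0.49.

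The other genes of the CXCR3 axis came next. Cxcr3, the receptor itself, read 77.0 units on noise only, 113 on dexamethasone 12 h, 145 on saline 12 h, 91.2 on dexamethasone 24 h, 124 on saline 24 h and 146 on baseline. It was lowest where Cxcl10 was highest, on noise only almost 2-fold below baseline (1.48 to 2.70), and it was lower with dexamethasone than with saline by -0.49 at 12 h and -0.46 at 24 h. Of the 8 genes of the list, 0 were at least 2-fold higher and 0 lower on noise only against baseline (median -0.04, all genes -0.01), and likewise for dexamethasone against saline at 12 h (median -0.46, all genes -0.02) and at 24 h (median -0.49, all genes -0.00). Shares of all measured genes follow, to set beside this and the list counts below for the same comparisons. They are 2.64% higher and 3.18% lower on noise only against baseline. For dexamethasone against saline they are 1.67% and 1.88% at 12 h, and 1.63% and 1.53% at 24 h.

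Between dexamethasone and saline, Pf4, a platelet chemokine that in man can bind a form of CXCR3, was -0.995 at 12 h and -0.73 at 24 h, and Ppbp, another platelet chemokine, was -0.86 and -0.63. Dpp4, the peptidase that trims CXCL9 and CXCL10, was -0.19 and -0.52. Ackr3, a scavenging receptor of related chemokines, was -0.43 and -0.09. Ackr1, the endothelial scavenger of many chemokines, read higher, by 0.36 and 0.30.

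The list also held Cxcl11, whose product is the third CXCR3 ligand in man, and RefSeq lists the mouse gene as a transcribed pseudogene. The brighter of its 2 probes read 155308 to 179532 units on the 6 arrays, differed by -0.03 between dexamethasone and saline at 12 h and by -0.06 at 24 h, and shared runs of 16 bases with 23 probes of other genes. The other probe read 2739 to 4284 units, shared such runs with 4 probes, and differed by 0.24 at 12 h and 0.04 at 24 h. It was 0.77 on dexamethasone 12 h against baseline, where the brighter probe was 0.30. What these probes captured is uncertain. Of the genes around the chromosome 5 cluster, 6 were measured, with Cxcl11 by its brighter probe among them. Of these 6, 0 were 2-fold apart in any comparison with baseline or between dexamethasone and saline. Their medians were -0.14 on noise only against baseline, 0.05 for dexamethasone against saline at 12 h and 0.23 at 24 h. Between dexamethasone and saline, Sdad1 at 0.89 was the highest at 24 h and Naaa at -0.19 the lowest at 12 h. Against baseline, Sdad1 was just under 2-fold lower on noise only, at -0.97, and on saline 24 h, at -0.98. Scarb2 was -0.94 on saline 12 h.

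Interferon gamma, the classical inducer of Cxcl9, was barely detectable. Ifng was well above background on saline 12 h alone, at 20.2 units. Cxcl9 was high on that array and on dexamethasone 24 h, where its level was within spot error of that on saline 12 h and Ifng, at 21.3 units, was not well above background. Its receptor genes Ifngr1 and Ifngr2 differed by -0.27 and -0.29 between dexamethasone and saline at 12 h, and the kinase genes Jak1 and Jak2 by 0.12 and -0.04.

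Irf1, a transcription factor gene induced by interferon gamma, was -0.26 with dexamethasone against saline at 12 h and -0.24 at 24 h, and the feedback inhibitor Socs1 was -0.77 at 12 h and -0.25 at 24 h. Of 7 measured genes of this list none was 2-fold apart on noise only against baseline or between dexamethasone and saline at either time, with medians of 0.07 on noise only against baseline, -0.27 at 12 h and -0.24 at 24 h.

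Genes that interferon gamma induces were higher on noise only than on baseline in 8 of 18 cases and lower in 1 by at least 2-fold (median 0.66). The highest were Iigp1 at 2.29, Gbp6 at 1.97 and Gbp3 at 1.95, all encoding guanosine triphosphatases (GTPases) of cell defence, and the lowest were Irf8 at -1.07, Ciita at -0.81 and Psmb9 at -0.24. Irf8 is a transcription factor of myeloid cells, Ciita the master regulator of class II antigen presentation, and Psmb9 a subunit of the immunoproteasome. In the same comparison Cxcl10 was 4.21 and Cxcl9 -0.46.

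Between dexamethasone and saline at 12 h, 0 of 17 measured members of that list were 2-fold higher and 3 lower, with a median of -0.61. The lowest were Psmb9 at -1.32, Irf8 at -1.22 and Psmb8, another immunoproteasome subunit, at -1.15, and the highest were Gbp5 at 0.10, Cd274, which encodes the checkpoint ligand PD-L1, at -0.07, and Irgm1, a further defence GTPase, at -0.21. Cxcl9 at -2.58 was below all of them. At 24 h none of the 17 was 2-fold apart (median -0.32), the highest being Gbp2 at 0.42, Gbp5 at 0.27 and Cd274 at 0.16 and the lowest Iigp1 at -0.82, Gbp3 at -0.68 and Irf8 at -0.53. Gbp2 was, like Cxcl9, lower with dexamethasone at 12 h, by -0.95, and higher at 24 h.

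Among type I interferon genes, Ifnb1, which encodes interferon beta, was not well above background on any array. Irf7, the amplifying transcription factor, was 1.62 on noise only against baseline, -1.30 with dexamethasone against saline at 12 h and -1.16 at 24 h. Stat2 and Irf9, which take part in the complex that binds interferon-stimulated response elements, were 1.27 and 0.83 on noise only, -0.19 and -0.38 for dexamethasone against saline at 12 h, and -0.45 and -0.27 at 24 h. The receptor genes Ifnar1 and Ifnar2 were -0.10 and -0.09 on noise only against baseline, the interferon regulator Irf3 was 0.22 and the kinase gene Tyk2 -0.51. Of 7 measured genes, 2 were 2-fold higher on noise only against baseline (median 0.22), and 1, Irf7, was 2-fold lower with dexamethasone at 12 h (median -0.19, or 0.07 with spike-in scaling) and at 24 h (median -0.14).

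Of 18 genes induced by type I interferon, 13 were at least 2-fold higher on noise only than on baseline and 0 lower (median 1.54), where 2.64% of all measured genes were higher and 3.18% lower. The highest were Ifit3 at 3.30, Mx2 at 2.72 and Ifit1 at 2.72, which encode antiviral effectors, and the lowest were Bst2 at -0.08, Oas3 at 0.03 and Isg15 at 0.71. Against baseline, 2 of 18 were higher and 1 lower on dexamethasone 12 h (median 0.25, or -0.17 with scaling on the E1A spike-in control RNA) and 10 of 18 were higher on saline 12 h (median 1.11). At 24 h, 6 of 18 were higher and 1 lower with dexamethasone (median 0.64) and 14 of 18 were higher with saline (median 1.62). Of all measured genes, 4.55% were higher on dexamethasone 12 h, 4.41% on saline 12 h, 1.31% on dexamethasone 24 h and 1.72% on saline 24 h. Lower were 2.64% on dexamethasone 12 h and 2.02% on dexamethasone 24 h. The median of the 18 genes, like Cxcl10, was higher on noise only and saline 24 h than on the other arrays.

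Between dexamethasone and saline, 5 of these 18 genes were 2-fold lower at 12 h and 6 at 24 h, with none 2-fold higher at either time, where 1.88% and 1.53% of all measured genes were lower. The medians were -0.76 and -0.89. At 12 h the lowest were Zbp1, a nucleic acid sensor, at -1.45, Oas1a at -1.13 and Ifi44 at -1.06, and the highest Ddx58, which encodes the RNA sensor RIG-I, at -0.28, Oasl2 at -0.42 and Ifit2 at -0.43. At 24 h the lowest were Mx1 at -1.65, Ifi44 at -1.60 and Ifit3 at -1.38, and the highest Bst2 at -0.09, Oas2 at -0.15 and Ddx58 at -0.58. Cxcl10 at -0.21 lay at the upper end of the 18 at 12 h, within spot error of Ddx58. With the mean of both probes Cxcl10 was -0.33, below Ddx58. At 24 h Cxcl10 was within the range of the 18, at -1.19.

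NF-kB genes, the other known route to Cxcl10, were nearly level. Of 8 genes, 0 were 2-fold apart on noise only against baseline (median -0.09, from Rel at -0.58 to Relb at 0.48). Between dexamethasone and saline none was 2-fold apart at 12 h (median -0.12) or at 24 h (median 0.05), medians that were 0.14 and -0.07 with spike-in scaling, and the feedback inhibitor gene Nfkbia was -0.22 and -0.10. These are transcript levels and say nothing on activity of the protein.

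Other inducible chemokine genes split into groups. On noise only against baseline, 5 of 13 measured genes were 2-fold higher and 1 lower (median 0.36), against 2.64% and 3.18% of all measured genes, led by the monocyte chemokines Ccl2 at 3.16, Ccl7 at 2.99 and Ccl12 at 2.55, while Cxcl5, a neutrophil chemokine, was -1.31, Ccl5 was -0.02 and Ccl8 0.15. For dexamethasone against saline at 12 h the highest were Cxcl13, which draws B cells, at 2.62, Cxcl1 at 0.65 and Ccl2 at 0.11, and the lowest Ccl12 at -1.34, Ccl5 at -0.996 and Ccl8 at -0.88, with 1 gene 2-fold higher, 1 lower and a median of -0.31. Cxcl9 was thus lower than all 13 of these chemokine genes at 12 h. At 24 h, where 2 of 12 genes were higher and 1 lower (median -0.10), Ccl2 was 1.57, Ccl7 1.39 and Cxcl1 0.70, against Ccl8 at -1.55, Ccl3 at -0.79 and Ccl5 at -0.68.

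Known glucocorticoid target genes were compared between the dexamethasone and saline arrays. Of 8 genes, 1 was 2-fold higher with dexamethasone at 12 h, Plin4, a lipid droplet gene, at 1.02, and the list median was 0.18. Fkbp5, which encodes a chaperone of the receptor, was 0.35, Tsc22d3, which encodes GILZ, was 0.18, Per1, a clock gene, was 0.10, Dusp1, a phosphatase gene, was 0.23, Sgk1, a kinase gene, was 0.18, and Zbtb16 was -0.08. At 24 h none was 2-fold apart and the median was -0.09. Sgk1 was 0.31 and Dusp1 0.21, while Plin4 was -0.02, Fkbp5 -0.08 and Zbtb16 -0.10. Nr3c1, which encodes the receptor, was -0.24, Tsc22d3 was -0.31 and Per1 was -0.73.

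**Figure D3:**
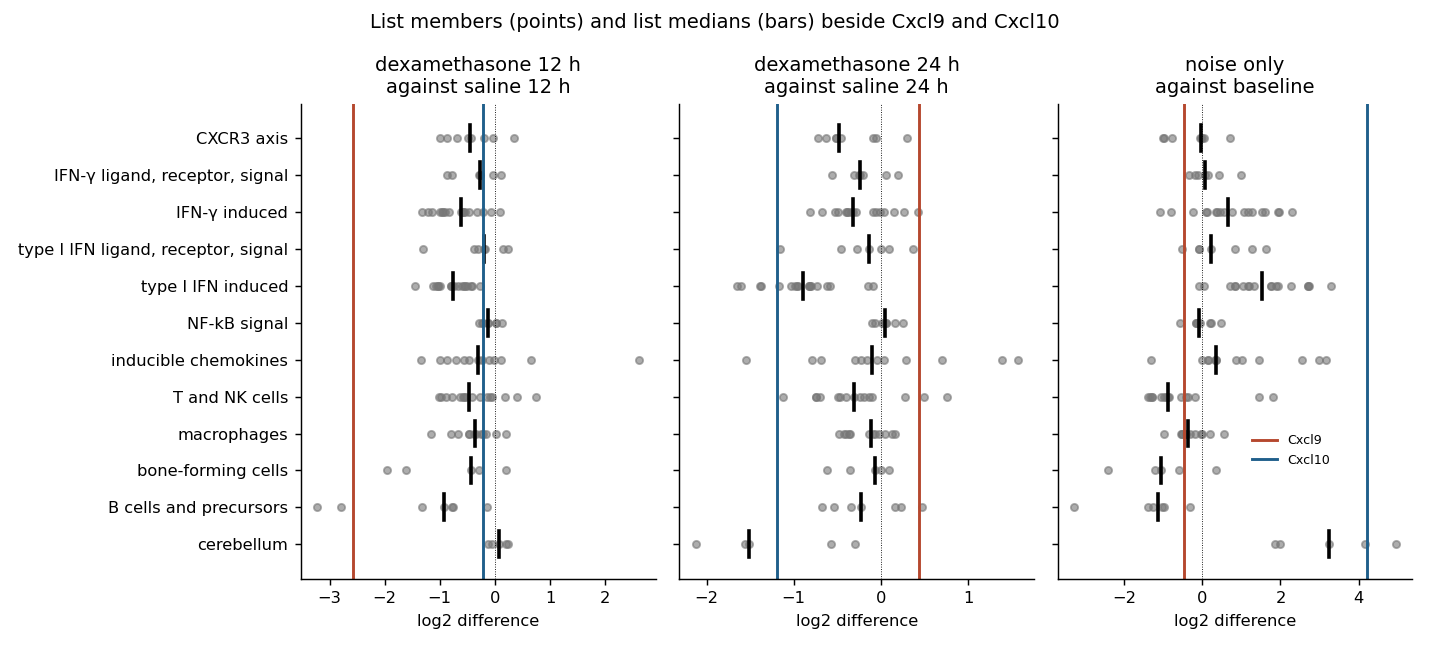
Log2 differences of listed genes well above background on both arrays (points, 1 per gene), their medians (black bars), and Cxcl9 and Cxcl10 (coloured lines) in 3 comparisons, each panel with its own horizontal scale. For dexamethasone against saline at 12 h, 2 points of the B cell list, Igll1 and Vpreb1, lie left of Cxcl9, and on noise only against baseline 1 point of the cerebellar list, Pcp2, lies right of Cxcl10.

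Markers of T and NK cells, which carry CXCR3, did not all move one way where Cxcl10 was highest. On noise only against baseline 2 of 15 measured markers were 2-fold higher and 5 lower (median -0.88), with Eomes at 1.82, Klrb1c at 1.44 and Cd4 at -0.18 the highest, and Cd8b1 at -1.39, Cd3d at -1.33 and Gzma at -1.28 the lowest. Eomes is a transcription factor of cytotoxic cells that some cerebellar neurons also carry, and Cd8b1 and Cd3d encode chains of the T cell co-receptor and receptor. The whole T and NK list summed to 23.4 on noise only, 18.6 on dexamethasone 12 h and 20.6 on saline 12 h. It summed to 14.8 on dexamethasone 24 h, 17.0 on saline 24 h and 18.2 on baseline. A few bright markers can set such a sum, which was highest on noise only although the median there was -0.88. Between dexamethasone and saline the medians were -0.47 at 12 h and -0.31 at 24 h, with 1 marker 2-fold lower each time, Nkg7 at -1.01 and Cd3g at -1.13, and none 2-fold higher. Ncr1, an NK cell receptor gene, was well above background on saline 12 h alone.

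Possible source cells of the chemokines were compared in the same way. Of 12 macrophage and monocyte markers, 0 were 2-fold higher and 1 lower with dexamethasone against saline at 12 h (median -0.37), from Aif1 at -1.16 to Lyz2 at 0.20, and none was 2-fold apart at 24 h (median -0.11). Of 8 endothelial markers, 0 were 2-fold apart at 12 h (median -0.04) or at 24 h (median -0.03). Of 5 measured dendritic cell markers, 1 was lower at 12 h (median -0.04) and none was 2-fold apart at 24 h (median 0.03). On noise only against baseline the medians were -0.37 for macrophages, -0.05 for endothelium and -0.06 for dendritic cells.

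Markers of other tissue also differed between the arrays, and their part in the Cxcl9 and Cxcl10 differences was not tested. The summed level of bone-forming markers was 44.1 on noise only, 34.3 on dexamethasone 12 h, 85.9 on saline 12 h, 83.7 on dexamethasone 24 h, 86.6 on saline 24 h and 81.7 on baseline, and on every array Bglap gave more than the other 4 markers together. Without Bglap, which is also the gene with the profile closest to Cxcl9, the other 4 markers summed to 14.4 on noise only, 16.8 on dexamethasone 12 h, 18.2 on saline 12 h, 18.3 on dexamethasone 24 h, 21.3 on saline 24 h and 19.8 on baseline, so noise only was then the lowest array. The median of the 5 bone markers for dexamethasone against saline at 12 h was -0.43, with 2 lower, and Ibsp, which encodes bone sialoprotein, was 0.19.

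Markers of B cells and precursors had a median of -0.92 for dexamethasone against saline at 12 h, with 3 of 7 lower. Igll1 at -3.23 and Vpreb1 at -2.79, which encode the surrogate light chain of B cell precursors, were further apart than Cxcl9 at -2.58. The median of the neutrophil markers was -0.80, with 1 of 8 higher and 1 lower, those of erythroid cells -0.66 and those of skeletal muscle -0.68. Epidermal markers, of which 3 were measured, had a median of -1.04 with 2 lower, cerebellar markers 0.08 and cochlear markers -0.03.

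On noise only against baseline, the medians of the same lists were -1.06 for bone-forming cells (3 of 5 lower), -1.14 for B cells (4 of 6 lower), -0.94 for neutrophils (4 of 8 lower), -0.70 for erythroid cells (1 of 5 lower) and -2.68 for epidermis (3 of 3 lower). They were 0.99 for muscle (2 of 5 higher), 3.24 for cerebellum (5 of 5 higher) and 0.15 for cochlea (none of 9 was 2-fold apart). On dexamethasone against saline at 24 h, where Cxcl10 was lower, the medians were -1.51 for cerebellum (3 of 5 lower), -0.92 for erythroid cells (2 of 5 lower), -0.49 for muscle (1 of 5 lower), -1.66 for 2 measured epidermal markers (1 lower), -0.43 for neutrophils, -0.23 for B cells, -0.07 for bone-forming cells and -0.39 for cochlea. Saline 24 h, where Cxcl10 was 12.3-fold above baseline, had a cerebellar sum of 17.2 against 10.8 on baseline. In that comparison 2 of 5 cerebellar markers were 2-fold higher (median 0.53), where 1.72% of all measured genes were. The 2 were Pcp2, a Purkinje cell gene, by 4.07-fold and En2, a homeobox gene of the cerebellum, by 3.63-fold.

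The genes closest to each member were taken as the 5 with the smallest root mean square distance between profiles over the 6 arrays, each centred on its own mean, among 24703 genes well above background on at least 3 arrays. For Cxcl9 they were Bglap (distance 0.29), Spaca1 (0.33), Bglap2 (0.36), Bglap3 (0.39) and Aplnr (0.44). Bglap and Bglap2 encode osteocalcin of bone-forming cells, Bglap3 is a near-identical relative, and the 3 probes may capture each other's transcripts, so they count as 1 profile. Aplnr encodes the apelin receptor, found on endothelium, and Spaca1 encodes a sperm acrosome protein. Spaca1 and Aplnr were well above background on 5 arrays, all except dexamethasone 12 h.

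Bglap read 20138 units on noise only, 10292 on dexamethasone 12 h, 36388 on saline 12 h, 40426 on dexamethasone 24 h, 39865 on saline 24 h and 39808 on baseline. It was -1.95 with dexamethasone against saline at 12 h and 0.00 at 24 h, and -1.06 on noise only against baseline. The Bglap profile thus shared with Cxcl9 the low levels on dexamethasone 12 h and noise only, and differed from it in staying level over the other 4 arrays.

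For Cxcl10 the closest genes were Ifit3 (0.34), Ifit3b (0.41), Mx2 (0.46), Ifit1 (0.52) and Mx1 (0.56), all encoding interferon-induced antiviral proteins. Ifit3 and Ifit3b are close paralogs whose probes may not separate their transcripts. Ifit3 read 15336 units on noise only, 3417 on dexamethasone 12 h, 4741 on saline 12 h, 5554 on dexamethasone 24 h, 14300 on saline 24 h and 1478 on baseline. These are the same highest arrays and the same lowest array as for Cxcl10.

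In the comparison of dexamethasone with saline at 12 h, Cxcl10 was -0.21. The 5 were -0.60 for Ifit3, -1.15 for Ifit3b, -0.54 for Mx2, -0.51 for Ifit1 and -0.99 for Mx1. The values of Ifit3, Mx2 and Ifit1 lay within the spot error interval of Cxcl10 given above for that comparison. At 24 h the 5 were -1.38, -1.37, -0.82, -1.17 and -1.65, listed as at 12 h, against -1.19 for Cxcl10. Likeness over 6 arrays of mixed tissue content is a description, and both 12 h arrays were on another slide than the other 4.

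**Figure D4:**
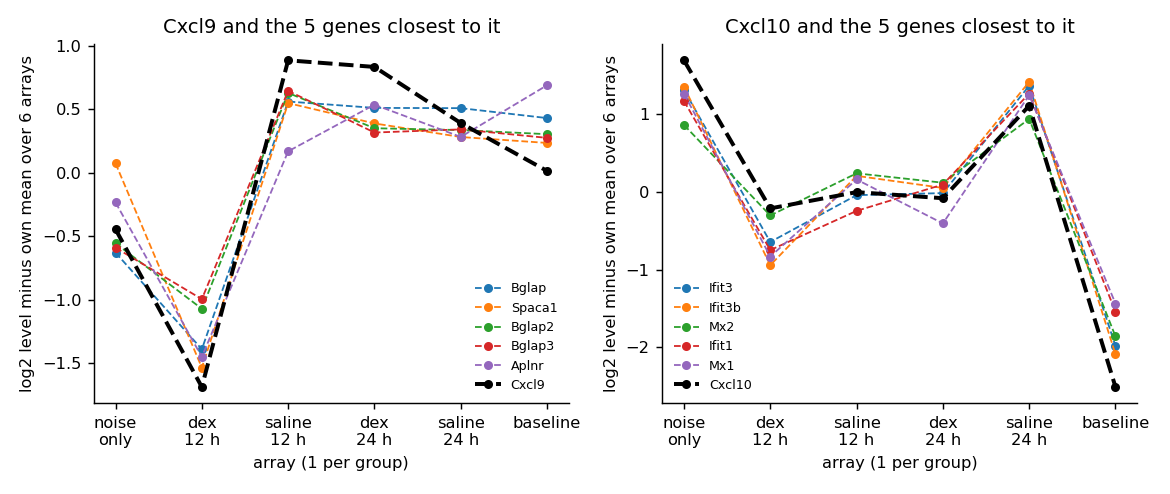
Profiles of Cxcl9 (left) and Cxcl10 (right) in black with the 5 closest genes in colour, as log2 level minus the gene's own mean over the 6 arrays; dashed lines only join the points of 1 gene. The Cxcl9 group is lowest on dexamethasone 12 h and the Cxcl10 group is lowest on baseline and highest on noise only and saline 24 h.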

How the data were processed

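Cochlear RNA was labelled with Cy3 and read on 6 one-colour Agilent arrays, 1 per group. The deposited scanner files hold spot intensity, and Feature Extraction 10.10.1.1 made the processed signal, per the file headers and the submitters' processing notes. Its spot error has a preset part of 10%, per the file headers. The deposited series matrix holds log2 values, which equal log2 of the processed signal minus a constant per array for 100% of probes within 0.01.

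Spots of a probe were averaged, each array was divided by its 75th percentile over non-control probes, and log2 was taken. Of 56605 probes, 32989 were named through RefSeq accessions, which changed 1534 names. Where a gene had several probes, the brightest on average stood for it. A gene was measured in a comparison if its probe was well above background on both arrays, and called at 2-fold. Where 1 array was not, the fold is a bound, marked by "at least". The number of arrays limits the precision, and no test was run. The programs were Python 3.11.15, numpy 2.4.6, pandas 2.3.3, R 4.3.3 and limma 3.58.1. The steps were tested on simulated data.

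The members and all 21 gene lists (CXCR3 axis, neighbours, interferon, NF-kB, chemokine, glucocorticoid and cell type lists) were chosen with earlier results of these data known. Named genes were both members, the 5 closest genes of each, all members of lists of at most 8 genes (some given only by count, median and range), and otherwise the 3 highest and 3 lowest of a comparison. Values of some list members are not reported here, although the counts and medians of their lists include them. Promoters and gene types came from RefSeq for GRCm38.p6. Alternatives in scaling, background, filter, threshold and probe choice were run.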

Additional observations from a re-analysis of the deposited data

Results flagged for a closer look

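Cxcl9 was lower with dexamethasone than with saline at 12 h, by a log2 difference of -2.58. At 24 h it was higher with dexamethasone, by 0.44 [0.02 to 0.87], an interval that stops just short of 0. The lowest value among the processing alternatives at 24 h was 0.28. In that comparison the 5th and 95th percentiles of all measured genes were -0.64 and 0.60. The signs at 12 h and 24 h were thus opposite, but the 24 h difference was small. With 1 array per group the difference between the times was not tested, and the 12 h and 24 h pairs lie on different slides.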

How the results depend on the processing

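Of 105 alternative values for the 14 differences of Cxcl9 and Cxcl10 against baseline and between dexamethasone and saline, 104 kept their direction. The exception was Cxcl10 with dexamethasone against saline at 12 h, at 0.05 with E1A spike-in scaling, against the reported -0.21 and a lowest value of -0.33 with the mean of both probes. In 7 the value moved by more than the spot error interval. With E1A spike-in scaling, Cxcl9 on saline 12 h against baseline was 0.19, and Cxcl10 against baseline was 1.88 on dexamethasone 12 h and 1.83 on saline 12 h. With normexp and quantile normalization, Cxcl9 on dexamethasone 12 h was -0.85 against baseline and -1.39 against saline 12 h. With the mean of both probes, Cxcl10 on dexamethasone 24 h was 2.93 against baseline and -0.67 against saline 24 h. E1A spike-in scaling shifted the median of all genes against baseline to -0.10 on noise only, -0.42 on dexamethasone 12 h, -0.62 on saline 12 h, -0.37 on dexamethasone 24 h and -0.26 on saline 24 h, and to 0.24 and -0.12 between dexamethasone and saline at 12 h and 24 h. The share of 2-fold genes that were higher then moved to 16.6% from the reported 63.3% on dexamethasone 12 h against baseline, to 5.19% from 56.3% on saline 12 h, to 10.96% from 39.3% on dexamethasone 24 h and to 23.2% from 50.1% on saline 24 h. For dexamethasone against saline it was 79.6% in place of 47.0% at 12 h and 36.9% in place of 51.7% at 24 h. Quantile normalization gave 52.4% on dexamethasone 12 h and 45.7% on saline 12 h against baseline. The counts of 2-fold genes ran, over filters, scalings and thresholds of 1.5-fold and 3-fold, from 399 to 3648 around 1405 on noise only against baseline, 486 to 5036 around 1715 on dexamethasone 12 h, 551 to 6177 around 1903 on saline 12 h, 203 to 2932 around 779 on dexamethasone 24 h and 265 to 2896 around 790 on saline 24 h. Between dexamethasone and saline they ran from 251 to 3612 around 857 at 12 h and from 206 to 2813 around 718 at 24 h. Of 168 alternative list medians, 23 changed sign and 24 moved by over 0.4. Quantile normalization kept all 5 closest genes of each ligand, while normexp with quantile normalization kept 2 for Cxcl9 and 4 for Cxcl10, and ranking by Pearson correlation kept 0 and 2. No paired analysis was possible because each group is 1 array, and for the same reason no replicate could be left out. The dim Cxcl9 probe lies near background on dexamethasone 12 h. The normexp setting added an offset of 50 units to each signal, which by itself makes log2 differences of dim probes smaller. How far the smaller Cxcl9 differences came from this offset or from the background estimate was not tested.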
